A study of Homo sapiens with 12 samples.

Results

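The genes described here are 34 genes of cholesterol and fatty acid synthesis, listed by name for their known roles, with earlier results of these data known. All 34 were among the 17508 genes of the count table, and 33 of them had a count in at least 1 library. They comprise 7 genes of the mevalonate steps, 12 of the steps from squalene to cholesterol, 5 of the SREBP pathway, 7 of fatty acid synthesis and 3 that move cholesterol. Poly(A)+ RNA of TYK-nu cells, a human line of high-grade serous ovarian cancer, was sequenced to see how cisplatin, a platinum drug that binds DNA, altered transcripts. The 4 groups were cells given 15 μM cisplatin for 24 h, cells given the solvent DMSO for 24 h, and the same treatments for 72 h, with 3 libraries each. All libraries came from 1 cell line. The labels did not say whether replicates were separate cultures, while the paper's methods state that the cells were grown in triplicate. The p-values measure the spread between these libraries, which may be partly technical.

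Cholesterol is built from acetyl-CoA through mevalonate, isoprenoids and squalene, and fatty acids are built from the same acetyl-CoA. The SREBP transcription factors switch on both routes. When membrane sterol is low, SCAP carries SREBP from the endoplasmic reticulum to the Golgi, where it is cut and freed to enter the nucleus, and INSIG proteins hold SCAP back when sterol is high. Exon counts follow spliced RNA, whereas intron counts follow mostly RNA not yet spliced.

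Library totals, as the sum of exon and intron counts, ranged from 18526830 to 36911333 at 24 h and from 26921033 to 68753262 at 72 h. The 34 genes took 52668 to 172644 counts per library, which was 0.284% to 0.300% of all counts at 24 h and 0.241% to 0.264% at 72 h. Of 10 markers of the labelled cell type, 9 were in the table and 5 had a median above 1 CPM (exon counts scaled to a common library size). VIM, an intermediate filament of mesenchymal cells, stood at 6775 to 8454 CPM, and KRT8, a keratin of epithelia, at 11.0 to 34.5. PAX8, KRT7, CDH1 and EPCAM had medians under 1. CDH1 was listed at 0 in every library, as were STARD4 and ELOVL5, so a listed 0 in this table is not read as a lack of expression. Summed markers of fibroblasts (the 5 of 6 genes with values) reached at most 0.255 CPM, of adipocytes (4 genes) 0.431 and of hepatocytes (4 genes) 0.0624. Of the leukocyte markers PTPRC was listed at 0, and the list's sum of 323 to 380 at 24 h and 593 to 658 at 72 h was nearly all CD68, a lysosomal protein. EPCAM, KRT8, VIM and CD68 were higher in every 72 h library than in every 24 h library, KRT18 was lower in every one (133 to 150.4 against 164 to 181 CPM), and their part in the changes with time was not tested.

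The sequence before the start site is shown for genes that rose (SREBF2, INSIG1 and SCD) and genes that fell (HMGCS1 and ACLY). RefSeq promoters on build GRCh38.p14 matched 30 of the 34 genes by symbol, and ACAT2, FDFT1, SQLE and FASN were missing. Each run is the 250 bases before the first listed start, 5′ to 3′, cut short where a GENCODE exon of the gene begins (148 bases for INSIG1 and 150 for HMGCS1), with capitals marking TCACNCCAC (a sterol regulatory element) and CCAAT (the CCAAT box, ATTGG on the other strand). Motifs were searched on both strands, and the capitalised stretches do not overlap. The ACLY run precedes a start listed by RefSeq that lies inside the longer GENCODE span of the gene.
SREBF2: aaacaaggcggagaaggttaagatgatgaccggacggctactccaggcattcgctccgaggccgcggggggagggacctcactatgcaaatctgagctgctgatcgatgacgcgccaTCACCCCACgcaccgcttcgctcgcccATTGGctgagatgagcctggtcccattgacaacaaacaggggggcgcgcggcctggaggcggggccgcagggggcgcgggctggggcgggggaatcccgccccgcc
INSIG1: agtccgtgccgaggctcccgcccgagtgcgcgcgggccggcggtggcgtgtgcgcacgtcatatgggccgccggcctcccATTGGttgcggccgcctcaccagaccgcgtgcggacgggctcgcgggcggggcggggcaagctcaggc
SCD: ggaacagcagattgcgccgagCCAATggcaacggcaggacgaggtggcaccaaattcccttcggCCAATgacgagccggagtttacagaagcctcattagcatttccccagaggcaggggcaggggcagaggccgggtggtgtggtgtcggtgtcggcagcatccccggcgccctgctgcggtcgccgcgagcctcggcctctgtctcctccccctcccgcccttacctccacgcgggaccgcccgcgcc
HMGCS1: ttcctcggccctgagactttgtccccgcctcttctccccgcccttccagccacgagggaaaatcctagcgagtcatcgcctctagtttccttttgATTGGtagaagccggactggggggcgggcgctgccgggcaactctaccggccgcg
ACLY: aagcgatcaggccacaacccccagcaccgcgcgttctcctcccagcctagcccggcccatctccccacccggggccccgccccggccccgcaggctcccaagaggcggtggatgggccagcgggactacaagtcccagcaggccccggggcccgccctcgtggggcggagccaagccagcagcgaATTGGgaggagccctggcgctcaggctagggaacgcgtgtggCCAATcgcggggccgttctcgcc

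These runs lie at chr22:41832855-41833104, plus strand for SREBF2, chr7:155297628-155297775, plus strand for INSIG1, chr10:100346983-100347232, plus strand for SCD, chr5:43313513-43313662, minus strand for HMGCS1 and chr17:41919023-41919272, minus strand for ACLY. Counted over the full 250 bases, the sterol regulatory element letters occurred in the SREBF2 window only, 1 of the 40 windows of these genes (2.5%), against 0.883% of all 35116 windows. The CCAAT box occurred in 23 of the 40 windows (57.5%), from 19 genes, against 32.0% of all windows. All 5 runs printed above hold it, but they are a chosen set. Its share was not compared between all genes that rose and all that fell. The E-box (CACGTG) occurred in 5 of the 40 windows (12.5%), from ABCA1, INSIG1 (in the part not printed), SC5D and SCAP, against 6.34% of all. The GC box (GGGCGG, not capitalised above) occurred in 35 of the 40 windows (87.5%) against 42.6% of all. A match is a run of letters in this window and not a measured binding site.

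Between 24 and 72 h with DMSO, FASN, ACLY, 4 of 7 genes of the mevalonate steps and 7 of 12 genes of the steps from squalene to cholesterol fell, while SREBF1, SREBF2, INSIG1 and the desaturase SCD rose. Exon counts fell for 15 of the 33 genes tested, led by FASN, and rose for 9, led by TM7SF2. Over all genes 32.5% fell and 32.6% rose, so the 45.5% of these genes that fell and the 27.3% that rose stand beside a background in which most genes moved. With cisplatin 12 of 33 fell (36.4%, against 31.5% of all genes) and 10 rose (30.3%, against 32.0%). The median log2 change of the 33 genes was -0.16 with DMSO and -0.05 with cisplatin, beside 0.01 and 0.02 over all 10444 genes tested. The libraries of the 2 times differ in treatment length and time in culture, which cannot be told apart. Depth also differed. After thinning every library to the smallest total, 22 of 32 members were called with DMSO and 23 of 32 with cisplatin. In those fits 63.95% and 61.52% of all genes were called. Calls are adjusted p under 0.05 in edgeR's quasi-likelihood test over all genes, and changes are log2 ratios of counts scaled by library.

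**Figure D1:**
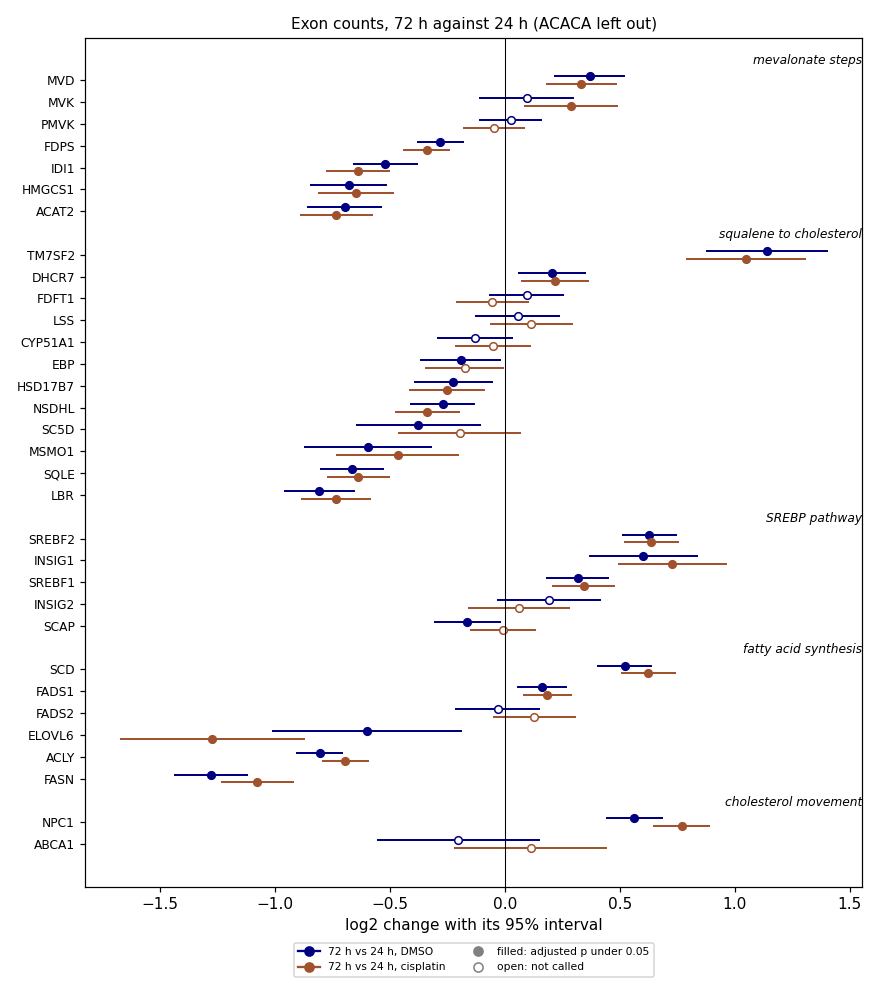
Log2 change of exon counts from 24 to 72 h (x axis) for 32 genes (y axis, grouped by role; ACACA, with few counts, is left out) with DMSO in blue and cisplatin in brown; points are estimates, lines 95% intervals, and filled points have an adjusted p under 0.05. FASN, ACLY, LBR, ACAT2, HMGCS1 and SQLE lie left of 0 and TM7SF2, SREBF2, INSIG1, NPC1 and SCD right of it under both treatments.

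Of the 7 genes of the mevalonate steps, ACAT2, HMGCS1, IDI1 and FDPS fell under both treatments, MVD rose under both, and MVK rose with cisplatin only by the test, a call lost without Cisplatin 72 h replicate 3 (0.21 in place of 0.29). Whether the treatments differ in this was tested as the difference of the cisplatin effects. HMGCS1 (ENSG00000112972, chr5:43287470-43313512, minus strand) makes HMG-CoA, the substrate of the rate-limiting step. Its exon CPM values were 53.2, 56.0 and 64.0 with DMSO and 60.1, 50.4 and 60.0 with cisplatin at 24 h, and 33.8, 36.8 and 37.1 with DMSO and 36.8, 34.3 and 37.5 with cisplatin at 72 h. Every 72 h library was below every 24 h library, and the log2 change was -0.68 ± 0.08 (SE, adjusted p = 6.23e-08) with DMSO and -0.65 ± 0.08 (SE, adjusted p = 1.19e-07) with cisplatin. FDPS (ENSG00000160752, chr1:155308748-155320666, plus strand) makes farnesyl diphosphate, at the branch to sterols, ubiquinone and protein prenylation. Its values were 229, 239 and 221 with DMSO and 232, 241 and 238 with cisplatin at 24 h, and 188, 192 and 187 with DMSO and 185, 185 and 192 with cisplatin at 72 h. They again did not overlap between times, with a smaller log2 change of -0.28 ± 0.05 (SE, adjusted p = 1.74e-05) with DMSO and -0.34 ± 0.05 (SE, adjusted p = 1.23e-06) with cisplatin. MVD (ENSG00000167508, chr16:88651935-88663161, minus strand) makes isopentenyl diphosphate and went the other way. It read 49.3, 49.5 and 47.3 with DMSO and 46.1, 56.6 and 50.6 with cisplatin at 24 h, and 65.1, 57.9 and 65.6 with DMSO and 61.0, 68.5 and 63.7 with cisplatin at 72 h. All 72 h libraries stood above all 24 h libraries, with changes of 0.37 ± 0.07 (SE, adjusted p = 1.22e-04) and 0.33 ± 0.07 (SE, adjusted p = 3.54e-04). ACAT2, the thiolase that joins 2 acetyl-CoA, changed by -0.70 ± 0.08 (SE) and -0.73 ± 0.07 (SE), and IDI1, the isopentenyl diphosphate isomerase, by -0.52 ± 0.07 (SE) and -0.64 ± 0.07 (SE). PMVK, a kinase of the same route, was called in neither treatment, at 0.02 (95% interval -0.11 to 0.16) with DMSO and -0.05 (95% interval -0.18 to 0.08) with cisplatin.

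**Figure D2:**
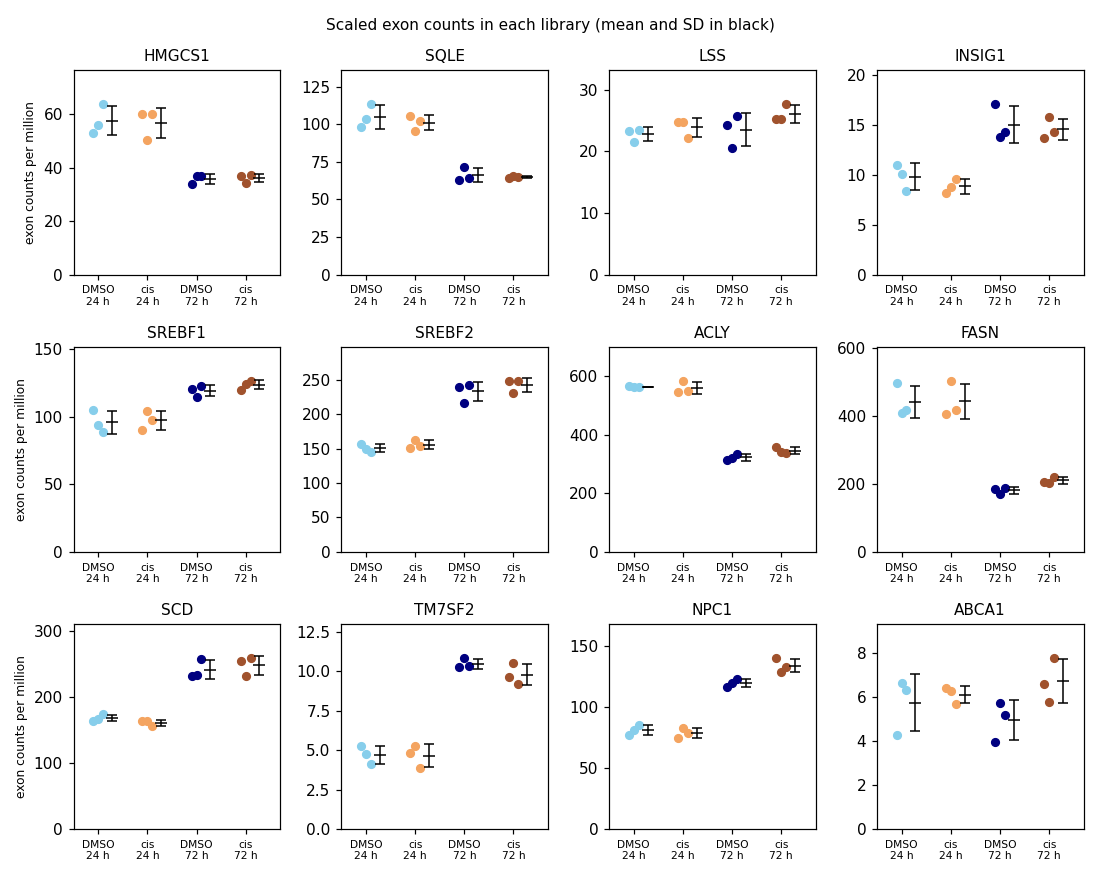
Exon CPM (y axis, from 0) in each library of the 4 groups (x axis) for 12 genes; points are libraries and black marks the mean with its SD (n = 3). The 72 h points lie below the 24 h points for HMGCS1, SQLE, ACLY and FASN, above them for INSIG1, SREBF1, SREBF2, SCD, TM7SF2 and NPC1, and overlap for LSS with DMSO and for ABCA1.

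Of the 12 genes from squalene to cholesterol, 7 fell and 2 rose with DMSO, where 32.5% of all genes fell and 32.6% rose. With cisplatin 5 fell and 2 rose, where 31.5% of all genes fell and 32.0% rose. SQLE (ENSG00000104549, chr8:124998497-125022283, plus strand), the squalene epoxidase and a second slow step of the route, read 97.8, 104 and 114 with DMSO and 105, 95.7 and 102 with cisplatin at 24 h, and 62.7, 71.2 and 64.4 with DMSO and 64.0, 65.7 and 64.9 with cisplatin at 72 h. The 72 h libraries were all lower, and the log2 change was -0.67 ± 0.06 (SE, adjusted p = 3.16e-09) with DMSO and -0.64 ± 0.06 (SE, adjusted p = 6.54e-09) with cisplatin. LSS (ENSG00000160285, chr21:46188141-46228824, minus strand) closes the sterol rings in the next step. Its values, 23.3, 21.5 and 23.6 with DMSO and 24.8, 24.8 and 22.2 with cisplatin at 24 h, and 24.2, 20.6 and 25.8 with DMSO and 25.2, 25.3 and 27.7 with cisplatin at 72 h, overlapped between the DMSO groups, and the changes of 0.06 (95% interval -0.12 to 0.23) and 0.12 (95% interval -0.06 to 0.29) were not called.

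2 genes of this route encode sterol C14 reductases, and they moved in opposite directions. LBR (ENSG00000143815, chr1:225401502-225428925, minus strand), which also anchors chromatin to the inner nuclear membrane, read 114, 128 and 137 with DMSO and 134, 116 and 126 with cisplatin at 24 h, and 75.7, 72.1 and 69.0 with DMSO and 78.1, 68.0 and 79.8 with cisplatin at 72 h. TM7SF2 (ENSG00000149809, chr11:65111845-65116384, plus strand), the reductase of the endoplasmic reticulum, read 5.26, 4.75 and 4.09 with DMSO and 4.81, 5.28 and 3.85 with cisplatin at 24 h, and 10.2, 10.8 and 10.3 with DMSO and 9.64, 10.5 and 9.19 with cisplatin at 72 h. LBR fell in both treatments, by log2 changes of -0.81 ± 0.07 (SE, adjusted p = 9.62e-10) and -0.74 ± 0.07 (SE, adjusted p = 4.78e-09), whereas TM7SF2 rose by 1.14 ± 0.13 (SE, adjusted p = 3.06e-08) and 1.05 ± 0.12 (SE, adjusted p = 9.80e-08). TM7SF2 overlaps VPS51 on the same strand in the annotation, so its counts are uncertain. EBP (ENSG00000147155, chrX:48521799-48528716, plus strand), the sterol isomerase, read 50.1, 49.6 and 47.7 with DMSO and 48.7, 51.1 and 48.1 with cisplatin at 24 h, and 36.8, 50.3 and 41.9 with DMSO and 40.8, 45.9 and 44.5 with cisplatin at 72 h. The DMSO groups overlapped, and its change with DMSO of -0.19 ± 0.08 (SE, adjusted p = 0.0436) was no longer called without DMSO 24 h replicate 1 or 2 or DMSO 72 h replicate 1 or 3, down to a change of -0.10. Of the others, MSMO1, NSDHL and HSD17B7 fell under both treatments, with log2 changes of -0.60, -0.27 and -0.22 with DMSO on the log2 scale, and SC5D changed by -0.38 with DMSO. The SC5D call was lost without DMSO 24 h replicate 3 (-0.19) or DMSO 72 h replicate 3 (-0.33), and that of HSD17B7 with DMSO without DMSO 24 h replicate 2 (-0.16) or DMSO 72 h replicate 3 (-0.19). DHCR7, the last reductase of the route, rose by 0.20 ± 0.07 (SE) and 0.22 ± 0.07 (SE), calls lost without DMSO 72 h replicate 3 (0.16) and without Cisplatin 24 h replicate 1 (0.17). FDFT1 (squalene synthase) and CYP51A1 (sterol demethylase) were called in neither.

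Of the 5 genes of the SREBP pathway, SREBF1, SREBF2 and INSIG1 rose under both treatments, SCAP fell with DMSO and INSIG2 was not called. SREBF2 (ENSG00000198911, chr22:41833105-41907306, plus strand) encodes SREBP2, the main activator of cholesterol synthesis. It read 157, 149.8 and 146 with DMSO and 151, 163 and 153 with cisplatin at 24 h, and 239, 217 and 243 with DMSO and 248, 231 and 248 with cisplatin at 72 h. The times did not overlap, and the log2 change was 0.63 ± 0.06 (SE, adjusted p = 6.52e-10) with DMSO and 0.64 ± 0.06 (SE, adjusted p = 5.57e-10) with cisplatin. SREBF1 (ENSG00000072310, chr17:17810399-17837002, minus strand), which encodes the SREBP1 forms and favours fatty acid synthesis, read 105, 93.6 and 88.6 with DMSO and 90.2, 104 and 97.6 with cisplatin at 24 h, and 120.3, 115 and 123 with DMSO and 119.9, 124 and 126 with cisplatin at 72 h. Its rise was smaller, 0.32 ± 0.06 (SE, adjusted p = 1.42e-04) and 0.34 ± 0.06 (SE, adjusted p = 5.74e-05). INSIG1 (ENSG00000186480, chr7:155297776-155310235, plus strand), the SREBP-induced brake on SCAP, read 11.0, 10.1 and 8.35 with DMSO and 8.17, 8.77 and 9.63 with cisplatin at 24 h, and 17.1, 13.8 and 14.2 with DMSO and 13.7, 15.8 and 14.3 with cisplatin at 72 h. Every 72 h library was above every 24 h library, with changes of 0.60 ± 0.11 (SE, adjusted p = 6.04e-05) and 0.73 ± 0.11 (SE, adjusted p = 5.31e-06). SCAP changed by -0.16 ± 0.07 (SE, adjusted p = 0.0383) with DMSO, where the groups overlapped, and by -0.01 (95% interval -0.15 to 0.13) with cisplatin. The SCAP call with DMSO was lost without DMSO 24 h replicate 1, at -0.08, and without DMSO 72 h replicate 1 or 2, at -0.16 and -0.13.

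Of the 7 fatty acid genes, ACLY, FASN and ELOVL6 fell and SCD and FADS1 rose under both treatments. FASN (ENSG00000169710, chr17:82078338-82098294, minus strand), the synthase that makes palmitate, had the largest fall of the 34 genes with DMSO. It read 496, 408 and 418 with DMSO and 406, 502 and 418 with cisplatin at 24 h, and 186, 169 and 189 with DMSO and 206, 203 and 221 with cisplatin at 72 h. Levels at 72 h were all under those at 24 h, with log2 changes of -1.28 ± 0.08 (SE, adjusted p = 5.14e-13) with DMSO and -1.08 ± 0.07 (SE, adjusted p = 1.16e-11) with cisplatin. ACLY (ENSG00000131473, chr17:41866917-41930542, minus strand), which makes cytosolic acetyl-CoA from citrate for both routes, read 564, 563 and 563 with DMSO and 546, 583 and 548 with cisplatin at 24 h, and 314, 319 and 334 with DMSO and 358, 340.5 and 338 with cisplatin at 72 h. The spread within groups was small, and the changes were -0.81 ± 0.05 (SE, adjusted p = 4.75e-13) and -0.69 ± 0.05 (SE, adjusted p = 7.41e-12). SCD (ENSG00000099194, chr10:100347233-100364826, plus strand), the desaturase that makes oleate, moved against them and read 164, 166 and 174 with DMSO and 163, 164 and 155 with cisplatin at 24 h, and 232, 234 and 257 with DMSO and 254, 231 and 258 with cisplatin at 72 h. It changed by 0.52 ± 0.06 (SE, adjusted p = 1.71e-08) with DMSO and 0.62 ± 0.06 (SE, adjusted p = 9.32e-10) with cisplatin.

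ELOVL6 (ENSG00000170522, chr4:110045846-110199199, minus strand), the elongase of palmitate, had few exon counts (46 to 138 per library). Its scaled values were 2.92, 3.14 and 3.77 with DMSO and 3.23, 4.05 and 4.03 with cisplatin at 24 h, and 2.58, 1.97 and 1.94 with DMSO and 1.79, 1.37 and 1.54 with cisplatin at 72 h. The times did not overlap, with log2 changes of -0.60 ± 0.20 (SE, adjusted p = 0.0104) and -1.27 ± 0.19 (SE, adjusted p = 3.78e-06), and the DMSO call was lost without DMSO 24 h replicate 3 or DMSO 72 h replicate 3. FADS1 (ENSG00000149485, chr11:61799627-61829318, minus strand), a desaturase of polyunsaturated fatty acids, read 236, 236 and 258 with DMSO and 242, 241 and 246 with cisplatin at 24 h, and 269.8, 267 and 277 with DMSO and 290.1, 266 and 273 with cisplatin at 72 h. Its rise was small, 0.16 ± 0.05 (SE, adjusted p = 0.00792) and 0.18 ± 0.05 (SE, adjusted p = 0.00265), and it overlaps FADS2 on the opposite strand. FADS2 was not called in either treatment. ACACA, the acetyl-CoA carboxylase, had only 4 to 27 exon counts per library against 49 to 141 intron counts, and its exon change with DMSO had a wide interval, -1.09 (95% interval -2.40 to 0.21). Its intron CPM values were 45.5, 47.4 and 43.2 with DMSO and 41.8, 43.8 and 40.5 with cisplatin at 24 h, and 37.0, 35.3 and 33.0 with DMSO and 38.6, 30.3 and 44.4 with cisplatin at 72 h. With DMSO the times did not overlap in introns, and the change of -0.38 ± 0.19 (SE, adjusted p = 0.107) was not called.

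Among the genes that move cholesterol, NPC1 rose and ABCA1 was not called. NPC1 (ENSG00000141458, chr18:23506184-23586506, minus strand), which carries cholesterol out of lysosomes, read 77.5, 81.4 and 85.1 with DMSO and 74.4, 83.0 and 78.8 with cisplatin at 24 h, and 116, 119.7 and 124 with DMSO and 140.3, 129 and 133 with cisplatin at 72 h. All 72 h libraries were above all 24 h libraries, by 0.56 ± 0.06 (SE, adjusted p = 9.67e-09) with DMSO and 0.77 ± 0.06 (SE, adjusted p = 4.85e-11) with cisplatin. ABCA1 (ENSG00000165029, chr9:104781006-104928155, minus strand), the exporter of cholesterol to apolipoproteins, had 97 to 369 exon counts per library. Its values were 4.26, 6.63 and 6.30 with DMSO and 6.38, 6.25 and 5.66 with cisplatin at 24 h, and 3.92, 5.73 and 5.17 with DMSO and 6.58, 5.75 and 7.74 with cisplatin at 72 h. They overlapped between times, at -0.20 (95% interval -0.55 to 0.15) and 0.11 (95% interval -0.22 to 0.44), and without DMSO 24 h replicate 1 the DMSO change was -0.39 (adjusted p = 0.0462 in edgeR). STARD4, a cytosolic sterol carrier, was listed at 0 exon and 0 intron counts in every library.

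A wider list of 57 genes around these routes had 50 tested genes, of which 16 rose and 15 fell with DMSO and 17 rose and 14 fell with cisplatin, where over all genes 65.1% were called with DMSO and 63.5% with cisplatin, about equally in each direction. The 10 genes of sterol esters and transport were all called, 7 higher and 3 lower under both treatments. NPC2, the partner of NPC1 in lysosomes, changed by 0.92 ± 0.08 (SE) with DMSO and 0.89 ± 0.08 with cisplatin, and GRAMD1A, a carrier of plasma membrane cholesterol, by 0.70 ± 0.07 and 0.68 ± 0.07. Of 8 tested genes of the isoprenoid branch 2 rose and 3 fell under each treatment, and PDSS1, which builds the ubiquinone side chain, changed by -1.47 ± 0.09 and -1.38 ± 0.08. GPAM, the first acyltransferase of glycerolipid synthesis, changed by -0.74 ± 0.07 and -0.71 ± 0.07, and HACD3, of fatty acid elongation, by -0.55 ± 0.05 and -0.53 ± 0.05. RXRB, a partner of the liver X receptors, changed by 0.67 ± 0.07 and 0.59 ± 0.07. None of the 50 was called for cisplatin against DMSO at either time, with 0 and 6 at an unadjusted p under 0.05 (2.49% and 12.6% of all genes).

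Intron counts moved with exon counts for some of these genes and not for others. With DMSO, intron counts rose for 7 of 32 genes tested (21.9%, against 17.2% of all genes) and fell for 5 (15.6%, against 16.2%). With cisplatin, 3 rose (9.38%, against 16.4%) and 5 fell (15.6%, against 15.4%). When introns were scaled by the exon library sizes instead, the split over all genes changed from 1658 higher and 1558 lower to 1297 and 1777 with DMSO, and from 1580 and 1482 to 1160 and 1713 with cisplatin. Among the members it became 5 higher and 7 lower with DMSO and 1 and 6 with cisplatin. The median of all genes was -0.08 and -0.09 under that scaling, against -0.01 and -0.02.

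**Figure D3:**
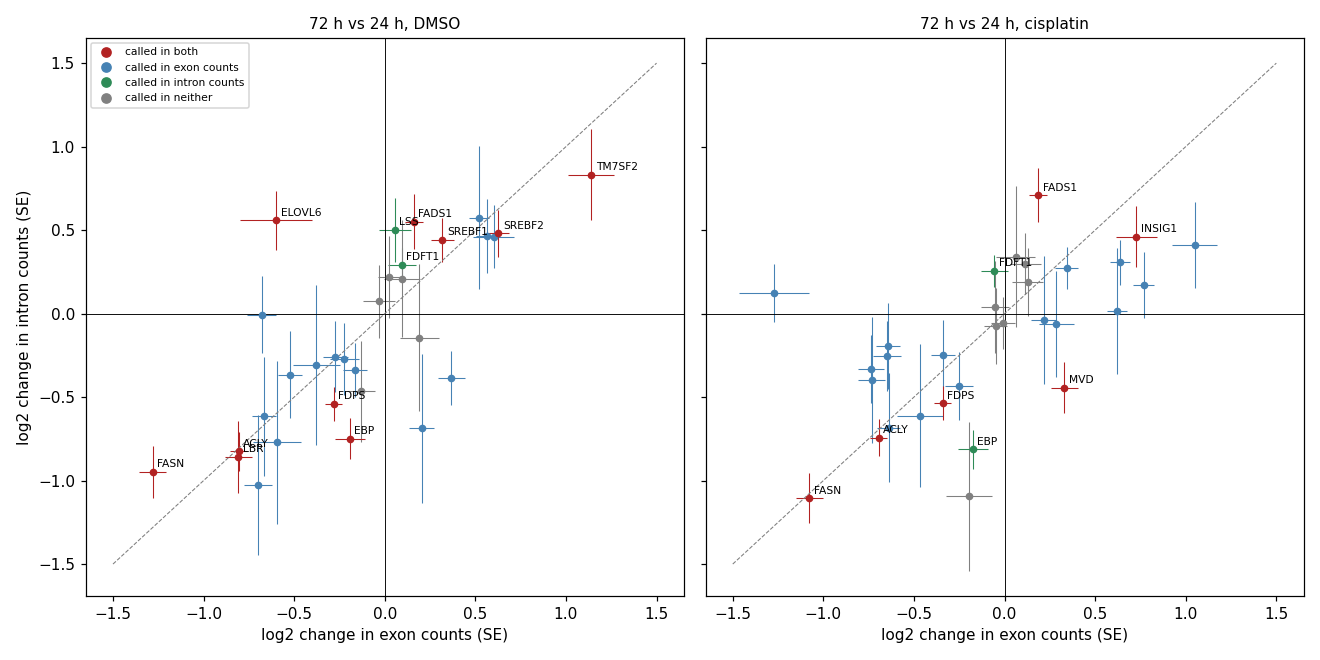
Log2 change from 24 to 72 h in exon counts (x axis) and intron counts (y axis), with DMSO (left) and cisplatin (right); points are genes (ACACA is left out), bars are SE, the dashed line marks equal change, and colours show where the adjusted p was under 0.05. FASN, ACLY and FDPS are below 0 on both axes under both treatments, and ELOVL6 with DMSO is below 0 in exons and above 0 in introns.

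Introns of ACLY, FASN, FDPS and EBP fell under both treatments. FASN intron CPM values were 94.8, 90.1 and 90.0 with DMSO and 80.7, 116 and 85.1 with cisplatin at 24 h, and 41.1, 48.0 and 52.2 with DMSO and 45.8, 43.2 and 43.9 with cisplatin at 72 h. The times did not overlap, with log2 changes of -0.95 ± 0.16 (SE, adjusted p = 2.10e-06) with DMSO and -1.10 ± 0.15 (SE, adjusted p = 2.86e-08) with cisplatin, beside -1.28 and -1.08 for its exons. ACLY read 183, 166 and 166 with DMSO and 159.6, 186 and 161 with cisplatin at 24 h, and 96.3, 99.9 and 95.4 with DMSO and 107, 97.3 and 100.0 with cisplatin at 72 h, and its changes of -0.82 ± 0.12 (SE, adjusted p = 7.70e-08) and -0.74 ± 0.11 (SE, adjusted p = 3.78e-07) were near those of its exons. FDPS read 372, 400.3 and 388 with DMSO and 382, 436 and 386 with cisplatin at 24 h, and 227, 306 and 265 with DMSO and 248, 278 and 308 with cisplatin at 72 h. It changed by -0.54 ± 0.10 (SE, adjusted p = 2.96e-05) and -0.54 ± 0.10 (SE, adjusted p = 2.47e-05), beside -0.28 and -0.34 for its exons, and its exon/intron ratio was not called under either treatment. EBP read 154, 129 and 152 with DMSO and 157, 161 and 147 with cisplatin at 24 h, and 87.5, 76.7 and 93.0 with DMSO and 85.9, 88.2 and 92.3 with cisplatin at 72 h. Its introns fell, with log2 changes of -0.75 ± 0.12 (SE, adjusted p = 2.40e-06) and -0.81 ± 0.12 (SE, adjusted p = 1.76e-07), where its exons changed by -0.19 and -0.18. EBP overlaps ENSG00000286268 and Metazoa_SRP on the same strand in the annotation, so its counts are uncertain. LBR introns read 41.3, 45.3 and 44.6 with DMSO and 46.9, 31.5 and 38.0 with cisplatin at 24 h, and 13.5, 26.5 and 30.2 with DMSO and 29.6, 31.4 and 30.0 with cisplatin at 72 h. They changed by -0.86 ± 0.22 (SE, adjusted p = 0.0014) with DMSO, and were not called with cisplatin.

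SREBF2 introns read 86.3, 66.7 and 66.6 with DMSO and 76.7, 82.5 and 65.3 with cisplatin at 24 h, and 106, 108 and 94.8 with DMSO and 102, 87.4 and 92.3 with cisplatin at 72 h. They rose with DMSO by 0.48 ± 0.14 (SE, adjusted p = 0.00626) and were not called with cisplatin. FADS1 read 45.0, 46.3 and 43.9 with DMSO and 35.5, 48.9 and 37.2 with cisplatin at 24 h, and 62.3, 72.3 and 64.2 with DMSO and 60.2, 68.4 and 75.3 with cisplatin at 72 h. It rose under both treatments, by 0.55 ± 0.17 (SE, adjusted p = 0.00707) and 0.71 ± 0.16 (SE, adjusted p = 4.07e-04). MVD read 77.9, 63.7 and 68.7 with DMSO and 60.6, 81.4 and 63.6 with cisplatin at 24 h, and 56.4, 51.9 and 52.9 with DMSO and 44.9, 51.6 and 57.8 with cisplatin at 72 h. Its introns fell with cisplatin, with a log2 change of -0.44 ± 0.15 (SE, adjusted p = 0.0216), a call lost without Cisplatin 24 h replicate 2 (-0.28) or Cisplatin 72 h replicate 1 or 2, while its exons rose. The other called introns were SREBF1, FDFT1, TM7SF2, LSS and ELOVL6, which rose with DMSO, and FDFT1 and INSIG1, which rose with cisplatin. With DMSO the FDFT1 call was lost without DMSO 24 h replicate 3 or DMSO 72 h replicate 2, and the TM7SF2 call without DMSO 24 h replicate 1 (0.68 in place of 0.83) or 3 (0.72). With cisplatin the FDFT1 call (adjusted p = 0.0386 in edgeR) was lost on leaving out any 1 of the 6 cisplatin libraries. The LSS call was lost without DMSO 24 h replicate 2 or 3 or DMSO 72 h replicate 1 or 3, the ELOVL6 call without DMSO 24 h replicate 2 or 3, and the INSIG1 call on leaving out any 1 of the cisplatin libraries except 24 h replicate 1. ABCA1 and STARD4 had too few intron counts to be tested.

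The exon/intron ratio, tested with each library's own exon and intron counts, changed with time for few of these genes. Over all 9380 genes the median log2 change was 0.10 with DMSO and 0.11 with cisplatin, and values are given without removing that shift. With DMSO 2 of 32 genes rose (6.25%, against 8.09% of all genes) and 1 fell (3.12%, against 3.37%). With cisplatin 3 rose (9.38%, against 8.36%) and 1 fell (3.12%, against 3.56%). The MVD ratio was 8.74, 11.4 and 9.05 with DMSO and 9.94, 8.57 and 11.3 with cisplatin at 24 h, and 17.1, 16.2 and 17.8 with DMSO and 19.1, 18.3 and 14.7 with cisplatin at 72 h. The times did not overlap, with a log2 change of 0.82 ± 0.17 (SE, adjusted p = 0.00151) with DMSO and 0.84 ± 0.16 (SE, adjusted p = 9.04e-04) with cisplatin. EBP read 4.50, 5.59 and 4.12 with DMSO and 4.05, 3.91 and 4.63 with cisplatin at 24 h, and 6.23, 9.54 and 6.47 with DMSO and 6.68, 7.18 and 6.45 with cisplatin at 72 h. Its ratio rose by 0.62 ± 0.17 (SE, adjusted p = 0.0145) and 0.70 ± 0.16 (SE, adjusted p = 0.00381), and the DMSO call was lost without DMSO 24 h replicate 1 or 3 or DMSO 72 h replicate 2. The annotation has 2 genes that overlap EBP on the same strand, so this ratio is uncertain. ELOVL6 read 0.854, 1.22 and 1.40 with DMSO and 1.12, 1.25 and 1.15 with cisplatin at 24 h, and 0.596, 0.477 and 0.506 with DMSO and 0.464, 0.471 and 0.489 with cisplatin at 72 h. It fell under both treatments, -1.09 ± 0.26 (SE, adjusted p = 0.00674) and -1.32 ± 0.26 (SE, adjusted p = 0.00107), and several genes overlap it on the opposite strand. NPC1 read 54.6, 48.6 and 46.4 with DMSO and 37.0, 29.8 and 38.6 with cisplatin at 24 h, and 57.6, 47.8 and 63.0 with DMSO and 63.4, 47.6 and 53.7 with cisplatin at 72 h. It rose with cisplatin by 0.67 ± 0.18 (SE, adjusted p = 0.0138), a call lost without Cisplatin 24 h replicate 2 or Cisplatin 72 h replicate 1.

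Cisplatin against DMSO at the same time left the exon counts of these genes without a called change. In edgeR 0 of 33 were called at 24 h (0.0% of all genes were) and 0 at 72 h (0.0287% of all genes), and DESeq2 also called 0 at each time. At an unadjusted p under 0.05 there were 0 members at 24 h (2.49% of all genes) and 5 at 72 h (15.2%, against 12.6% of all genes). The 2 groups did not overlap for 0 members at 24 h (6.42% of all genes) and for 9 at 72 h (18.2% of all genes).

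**Figure D4:**
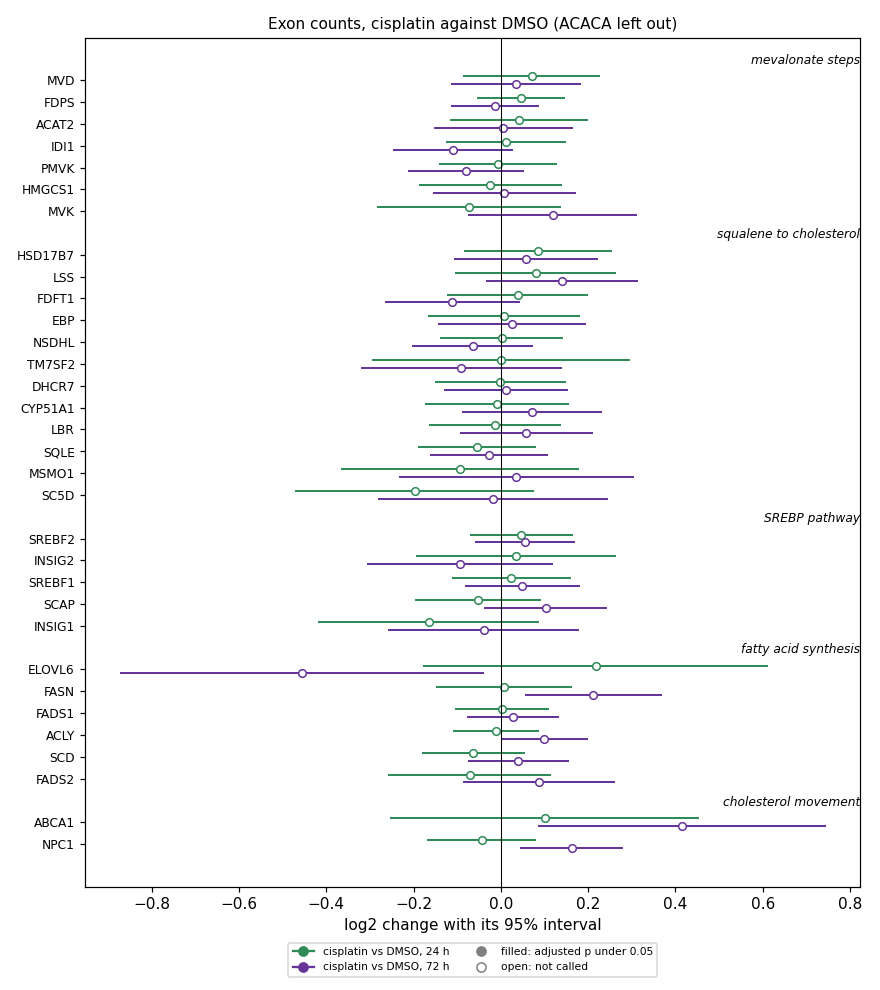
Log2 change of exon counts with cisplatin against DMSO (x axis) for 32 genes (y axis, grouped by role; ACACA, with few counts, is left out) at 24 h in green and 72 h in purple; points are estimates and lines 95% intervals. All points are open, that is, not called, and most lie within 0.2 of 0.

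The 5 genes at 72 h were NPC1, FASN, ABCA1, ELOVL6 and ACLY. The log2 change with cisplatin was 0.16 ± 0.06 (SE, unadjusted p = 0.00857, adjusted p = 0.26) for NPC1 and 0.21 ± 0.07 (SE, unadjusted p = 0.00956, adjusted p = 0.26) for FASN. For ABCA1 it was 0.41 ± 0.16 (SE, unadjusted p = 0.0151, adjusted p = 0.293), for ELOVL6 -0.46 ± 0.20 (SE, unadjusted p = 0.0323, adjusted p = 0.358) and for ACLY 0.10 ± 0.05 (SE, unadjusted p = 0.0451, adjusted p = 0.386). In all 5 the cisplatin and DMSO libraries of 72 h did not overlap, higher with cisplatin except for ELOVL6, and none passed correction over all genes. FASN was called (adjusted p = 0.0214 in edgeR) only when no filter on low counts was applied. That fit called 154 of 13148 genes (1.17%) at 72 h. Intervals for other genes were as follows. SREBF2 was at 0.05 (95% interval -0.07 to 0.16) at 24 h and 0.06 (95% interval -0.06 to 0.17) at 72 h, and HMGCS1 at -0.02 (95% interval -0.18 to 0.14) and 0.01 (95% interval -0.15 to 0.17). SQLE was at -0.05 (95% interval -0.19 to 0.08) and -0.03 (95% interval -0.16 to 0.11), SREBF1 at 0.02 (95% interval -0.11 to 0.16) and 0.05 (95% interval -0.08 to 0.18), and SCD at -0.06 (95% interval -0.18 to 0.05) and 0.04 (95% interval -0.07 to 0.15). LSS was at 0.08 (95% interval -0.10 to 0.26) and 0.14 (95% interval -0.03 to 0.31), and INSIG1 at -0.17 (95% interval -0.42 to 0.08) and -0.04 (95% interval -0.26 to 0.18). ACACA was at -0.31 (95% interval -1.54 to 0.93) and 0.76 (95% interval -0.46 to 1.99). A p that misses the threshold does not show that the treatments act alike, and the intervals give the sizes still allowed.

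The cisplatin effect at 72 h minus that at 24 h was called for 0 members in edgeR and in DESeq2 (0.0% of all genes in edgeR), with 2 (6.06%) at an unadjusted p under 0.05, against 9.43% of all genes. These were NPC1, at 0.21 ± 0.08 (SE, unadjusted p = 0.0192, adjusted p = 0.496), and ELOVL6, at -0.67 ± 0.28 (SE, unadjusted p = 0.0227, adjusted p = 0.498). The same contrast is the difference between the time changes with cisplatin and with DMSO, so no member was shown to change differently with time under the 2 treatments.

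For introns, edgeR called 0 of 32 members with cisplatin at 24 h (0.0208% of all genes) and 0 at 72 h (0.0416%), with 0 and 1 at an unadjusted p under 0.05 (5.0% and 6.46% of all genes), and DESeq2 called 0. For the exon/intron ratio edgeR called 0 of 32 at 24 h (0.0% of all genes) and 0 at 72 h (0.0213%), with 2 and 1 unadjusted (6.33% and 6.24% of all genes), and DESeq2 called 0. The logistic regression that the study's methods describe pools the libraries of a group, and takes no account of their spread. It called 4 of 33 members at 24 h (12.1%, against 11.5% of all genes), which were SREBF1, HMGCS1, NPC1 and FDPS, all lower with cisplatin. Over all genes most calls went that way, 1036 of 1110 at 24 h and 971 of 1144 at 72 h. The median log2 ratio change of all genes was -0.11 at 24 h and -0.07 at 72 h. At 72 h the regression called FDPS (1 of 33, against 11.4% of all genes). The log2 ratio changes were -0.33 ± 0.09 (SE) for SREBF1, -0.54 ± 0.17 (SE) for HMGCS1, -0.58 ± 0.17 (SE) for NPC1 and -0.14 ± 0.05 (SE) for FDPS at 24 h, and -0.14 ± 0.05 (SE) for FDPS at 72 h. Without Cisplatin 24 h replicate 2, 0 of the 4 calls were left. This library had the highest intronic share of all counts at 24 h (7.15%) and also the most counts (36911333). The part of its share and of its depth in the lost calls was not tested. For time the logistic regression called 10 of 33 with DMSO (30.3%, against 33.7% of all genes) and 15 with cisplatin (45.5%, against 40.6%). With the spread between libraries in the model (a quasi-binomial fit) the counts were 0, 0, 0 and 1, in fits that called only 0, 0, 64 and 97 of all genes.

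The intronic share of the members' counts did not separate the groups. It was 4.28% ± 0.177 (SD, n = 3) with DMSO and 4.60% ± 0.448 with cisplatin at 24 h, and 4.29% ± 0.186 with DMSO and 4.42% ± 0.168 with cisplatin at 72 h. Single libraries lay between 4.08% (95% Wilson interval 3.95% to 4.21%) and 5.09% (4.96% to 5.22%), the latter again Cisplatin 24 h replicate 2. The intervals cover counting error only. Exact two-sided permutation tests of cisplatin against DMSO gave p = 0.4 at each time, and of 72 h against 24 h p = 1.0 with DMSO and p = 0.7 with cisplatin, where 3 libraries against 3 cannot go below 0.1.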

How the data were processed

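Poly(A)+ RNA of 12 libraries (4 groups of 3, by GEO's labels) was analysed. The deposited counts are whole numbers of fragments on the constitutive exons and on the introns of each gene, which the authors obtained with HTSeq after adapter trimming (Trim Galore) and HISAT2 alignment to the GRCh38 genome. The strand option and any low-count filter are not given in the sources used here, so 22 members that overlap other genes are uncertain. Depth was 18526830 to 68753262 counts per library. Counts were scaled by TMM, filtered by edgeR's filterByExpr and tested in 1 quasi-likelihood fit of all libraries (edgeR 4.0.16, R 4.3.3), with Benjamini-Hochberg adjustment over all genes. The ratio test needed 10 exon and 10 intron counts in 3 libraries and had a term per library, and the logistic regression needed 1 of each in every library. DESeq2 1.42.0 was an alternative, beside other scalings, filters, thinning and leaving out libraries. Simulated counts with known changes were put through the edgeR tests, DESeq2 on exon counts, and the logistic and quasi-binomial fits. Only cisplatin against DMSO at 24 h was simulated. Positions came from GENCODE release 44. Members and lists were chosen with earlier results of these data known. The genes given with values in every library were 10 named for their role and up to 6 per comparison and measure with the smallest adjusted p under 0.05, and TM7SF2 was added after its values were seen. The value of 1 cell type marker is not reported here.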

Additional observations from a re-analysis of the deposited data

How the results depend on the processing

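Replicate numbers did not pair the libraries, since same-numbered libraries deviated from their group means with correlations of -0.11 to 0.10 over genes. With a replicate block the member counts were 23 and 23 (exons, DMSO and cisplatin over time, against 24 and 22 without it) and 13 for introns with DMSO (against 12). The block left the counts at 8 for introns with cisplatin, at 3 and 4 for the ratio, and at 0 for each cisplatin comparison in edgeR. Over all genes the blocked fits over time called 64.64% and 62.6% for exons with DMSO and cisplatin. For introns they called 32.79% and 31.24%, and for the ratio 10.2% and 10.38%. With the block the logistic regression gave 5, 1, 9 and 15 members, beside 10.63%, 12.72%, 33.55% and 40.64% of all genes. The intronic share differences of 0.323, 0.123, 0.0137 and -0.186 percentage points were as without it. Without a low-count filter 1 member (FASN) was called for cisplatin at 72 h, beside 154 of 13148 genes (1.17%). With the filter DESeq2 called 55 of all genes in that comparison, where edgeR called 3, and 0 members. Leaving out 1 library gave 20 to 24 members for exons over time with DMSO and 21 to 23 with cisplatin. It gave 8 to 13 for introns with DMSO, and 5 to 7 with cisplatin (5 without Cisplatin 72 h replicate 1). For the logistic regression it gave 0 to 6 and 0 to 1 for cisplatin at 24 and 72 h, and 6 to 9 and 10 to 16 for time with DMSO and cisplatin. At 24 h the count was 2 without DMSO replicate 1, 1 without DMSO replicate 2 and 0 without Cisplatin replicate 2. At 72 h it was 0 without DMSO replicate 1 or Cisplatin replicate 2 or 3, and for time with DMSO 6 without DMSO 24 h replicate 1 or 3. The quasi-binomial counts were 0, 0, 0 and 1. As the median over members, the intronic share with DMSO was 0.316 percentage points higher at 72 h (exact permutation p = 0.7) in place of 0.0137. The causes were not tested. Over the named genes, 0 alternatives turned the direction of a called change.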
